A study of Mus musculus with 18 samples.

Results

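The sites described here are the m5C sites of mRNA with a call in each of the 3 control libraries and in none of the 6 OGD/R libraries. They were chosen by the calls themselves, so the absence from the OGD/R libraries is the rule and not a result. There were 1020 such sites in 603 genes. They made up 5.65% of the 18059 mRNA sites and stood among 25890 distinct sites called in the 9 libraries, each of them on a cytosine of the mm10 genome. An mRNA site is a called cytosine that falls, on its own strand, into an exon of a protein-coding RefSeq mRNA. The sites are called control-only sites below.

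The libraries came from cells labelled as primary cortical neurons of C57BL/6 mice at embryonic day 18. Control cells were left untreated. OGD/R cells, a culture model of ischemia and reperfusion, were deprived of oxygen and glucose for 1.5 h or 3 h and were then kept in normal medium for 24 h. Each group had 3 bisulfite libraries, and the gas mixture given in the labels does not add up, so the oxygen level is not stated here. The study calls its replicates sequencing pools, and how many animals or cultures went into them is not given in the sources used here.

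m5C is cytosine that carries a methyl group on its ring. In mRNA it is written mainly by NSUN2 and, in a distinct sequence and hairpin context, by NSUN6, and it can be bound by readers such as ALYREF, which exports mRNA from the nucleus, and YBX1, which stabilises it. Bisulfite turns unmethylated cytosine into uracil, so a cytosine that is still read as cytosine is a candidate for m5C. Cytosines inside stable RNA structure can also resist conversion, and clusters of neighbouring cytosines that all stay unconverted are a known feature of such reads.

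Each called site carries a score, the caller's own call score times 10, with decimals dropped and a cap of 1000. It has no unit and grows with the number of reads over the cytosine and with the methylated share together, so neither the level nor the number of reads can be read from it. A site missing from a library may have been unmethylated there or may have had too few reads, and less methylation, less RNA per cell and fewer cells of a type cannot be told apart. Read depth per library is unknown. The control libraries held 3886, 4146 and 3800 mRNA sites, the OGD/R 1.5 h libraries 3508 to 3749 and the OGD/R 3 h libraries 4733 to 5269. Coverage of the replicates of control, and of those of OGD/R 3 h, differed by less than the sampling noise. Each group of 3 libraries was thus taken as 1 sample, also for OGD/R 1.5 h, where this was not checked, and no p-value is given.

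The labelled cell type was checked against its markers. None of 16 neuronal marker genes, among them Map2, Tubb3, Snap25 and Rbfox3, had a called site in any of the 9 libraries, and 1 of 16 glial genes did. Of 28 genes of intestinal epithelium, 21 had a site in a control library, 20 in an OGD/R 1.5 h library and 25 in an OGD/R 3 h library. The intestinal genes held 125, 129 and 125 sites in the control libraries, 76 to 88 in the OGD/R 1.5 h libraries and 234 to 260 in the OGD/R 3 h libraries. Neutrophil genes held 0 sites in every control and OGD/R 1.5 h library and 21 in each OGD/R 3 h library. These were in 3 of 14 genes, S100a8, S100a9 and Ngp. Erythroid genes held 1 site in each control library, 1 or 2 in the OGD/R 1.5 h libraries and 35 in each OGD/R 3 h library. Those of control and OGD/R 1.5 h were all in Tfrc, and those of OGD/R 3 h in 3 of 11 annotated genes, Hbb-bs, Hbb-bt and Tfrc. The cells are therefore named below by their group label alone. The gene lists were chosen with earlier results of these data known. How many of all genes had a site in each group is not given here, so these counts stand without a background. Sites count only methylated mRNAs with enough reads, so that a gene without a site may still be expressed.

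The 12 genes whose control-only sites had the highest mean scores are shown by the sequence around the site, since these are the sites seen most strongly in control and in no OGD/R library. Each line is 21 nt of the GRCm38 genome (mm10) in the sense of the mRNA, 5′ to 3′, as DNA letters. The capital is the called cytosine.
Apoa4 (chr9:46242408-46242428, plus strand): caagaaggagCtggaggacct
Muc13 (chr16:33811843-33811863, plus strand): gtgtgcatgcCgggctaccag
Apoa1 (chr9:46230075-46230095, plus strand): gctgcaggagCtgcaagggag
Anpep (chr7:79822271-79822291, minus strand): ccaacatcgaCtgggtgaagg
Myh9 (chr15:77763245-77763265, minus strand): aggtggaggaCgagcggagga
Krt20 (chr11:99429002-99429022, minus strand): gtcgtgtcctCtgaagtcaag
Smim24 (chr10:81394808-81394828, plus strand): acaggaagggCggacagagca
Hsp90ab1 (chr17:45570441-45570461, minus strand): gatgtgggatCcgatgaggaa
Npm1 (chr11:33159941-33159961, minus strand): atgatgaggaCgatgaggatg
Fcgbp (chr7:28106282-28106302, plus strand): tgagtgcgggCctgatggcca
Epcam (chr17:87650465-87650485, plus strand): cctagccgtgCtgagtgctga
Aimp1 (chr3:132673966-132673986, minus strand): aaagagaagaCtgaaaagaaa

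The site with the highest mean score lay in the CDS of Apoa4, an apolipoprotein of chylomicrons, 315 nt from the first base of the start codon. Its scores were 1000, 1000 and 889 in the 3 control libraries. In Muc13, a transmembrane mucin of epithelia, the highest site scored 835, 1000 and 1000 and lay in the CDS. The highest site of Apoa1, the main apolipoprotein of HDL, scored 738, 996 and 1000. Of these 9 values 5 are at the cap of 1000, so that how far the genes differ cannot be read from them.

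Anpep, a peptidase of the brush border, carried a site in the stop codon region that scored 747, 760 and 939. Krt20, a keratin of intestinal epithelium, had one in the same region with scores of 631, 844 and 799. Smim24, a small membrane protein, scored 523, 648 and 750. Fcgbp, a mucus protein that binds the Fc part of IgG, reached 480, 594 and 395, and the adhesion molecule Epcam 395, 476 and 524. Of the 12 genes, 7 (Apoa4, Muc13, Apoa1, Anpep, Krt20, Fcgbp and Epcam) belong to the intestinal list.

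The other genes at the top serve most cells. Myh9, a nonmuscle myosin heavy chain, scored 806, 534 and 1000 at its highest site. Hsp90ab1, a cytosolic chaperone, scored 549, 651 and 461, and Npm1, a nucleolar chaperone, 512, 506 and 465. Aimp1, a scaffold of the complex of aminoacyl-tRNA synthetases, scored 548, 569 and 243. Npm1, Hsp90ab1 and the ribosomal protein genes named further on have near-identical pseudogenes, and how reads with several matches were placed is not given in the sources used here, so their sites are uncertain. The spread between the libraries was widest in Aimp1 and Myh9 and narrowest in Npm1 among these 4 genes. Of the 12 highest sites, 8 lay in the CDS and 4 around the stop codon, and 7 were followed by G at the second base downstream without G at the first (CHG).

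**Figure D1:**
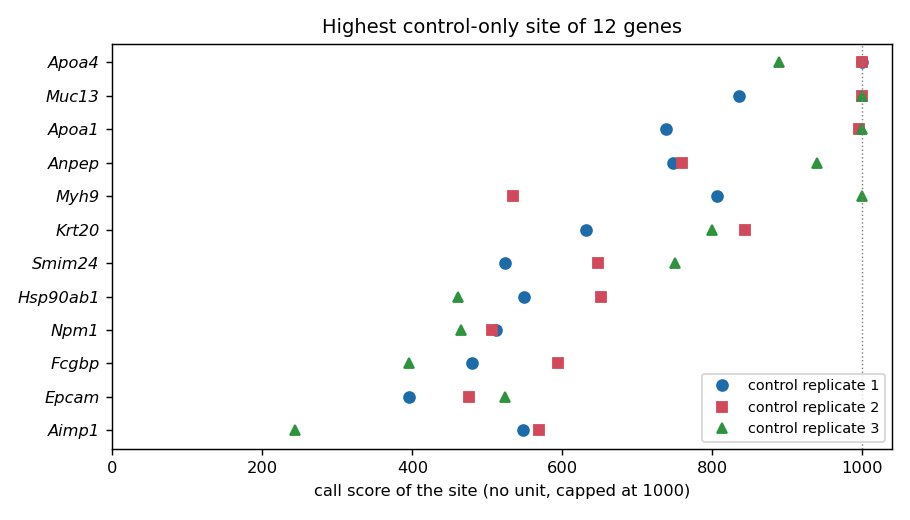
Call score (x axis, no unit, capped at 1000) of the highest control-only site of 12 genes (y axis) in control replicates 1, 2 and 3. Npm1 shows the closest values, 512, 506 and 465, while Aimp1 runs from 243 to 569.

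Most control-only sites had far lower scores than these. The median score was 10, 11 and 8 in the 3 control libraries, where all mRNA sites had medians of 9, 10 and 10. The mean over the libraries had a median of 11.7 and quartiles of 5.33 and 31.75. In 246 sites (24.1%) all 3 scores were under 10, and in 62 sites (6.08%) all were at least 100. A score of 0, which is a call score below the first whole step, was given to 101 sites in at least 1 library.

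Scores of a site varied between the control libraries although the site was called in each. The highest was a median of 4.5 times the lowest over the 919 sites without a score of 0. Across sites, Spearman's rho between pairs of libraries was 0.552, 0.533 and 0.570. The points are sites of the same libraries and share their RNA and depth, so that these values only describe the calls.

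The sites just outside the rule had values of the same order. A further 769 mRNA sites were called in 2 control libraries and in no OGD/R library, with a median mean score of 8.5. Another 210 had a call in each control library and in a single OGD/R library, with a median of 12.7. Of these 210, 143 were called in an OGD/R 1.5 h library and 67 in an OGD/R 3 h library. Sites of every control library with a call in at least 2 OGD/R libraries numbered 580, and their median score was 35.8.

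Of the 1810 mRNA sites called in all 3 control libraries, the control-only sites were 56.4%, and the other 790 were also called in OGD/R. The same count from the other groups gave 49.6% for OGD/R 1.5 h, where 631 of 1271 sites were found in that group alone, and 72.5% for OGD/R 3 h, where 1858 of 2563 were. These shares follow from the rule and from how many sites each library yielded, and nothing is read from them. They stand as the background for the counts of gene groups given further on.

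Within the mRNA, 513 of the 1020 control-only sites (50.3%, exact 95% interval 47.2 to 53.4) lay in the start codon region, which is the codon with 100 nt on either side. The share depended on this width and on the call rule. With 50 nt on either side it was 28.6%, and the CDS then held the most sites (38.9%). The CDS also held more than the start codon region with 2 of 3 control libraries required (39.6% and 38.3%) and with a score of at least 10 in each control library (37.1% and 33.6%). With 100 nt, the CDS outside the codon regions held 271 sites (26.6%, 23.9 to 29.4) and the 5′ UTR 180 (17.6%, 15.4 to 20.1). The stop codon region had 26 (2.55%, 1.67 to 3.71) and the 3′ UTR 30 (2.94%, 1.99 to 4.17). The intervals here and below are exact binomial intervals that cover counting error only, and neighbouring sites on the same mRNA are not independent.

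The 790 control sites that were also called in OGD/R were placed differently. There the start codon region held 25.8% (22.8 to 29.0), the CDS 47.8% (44.3 to 51.4), the 5′ UTR 11.9% (9.72 to 14.4) and the 3′ UTR 11.5% (9.38 to 13.95). The stop codon region held 2.91% (1.85 to 4.34). The rule itself split these sites from the control-only sites, so the shares only describe the 2 sets. The sites found in OGD/R 3 h alone stood nearer to the control-only sites, with 56.0% (53.7 to 58.3) in the start codon region and 21.8% (19.9 to 23.7) in the CDS, and those of OGD/R 1.5 h alone had 47.4% (43.4 to 51.4) and 32.0% (28.4 to 35.8). The concentration around the start codon was thus not confined to control.

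Shared sites also had higher scores, so both sets were compared again within the range from 5.33 to 31.75, a choice made after the data had been seen. It held 519 control-only and 297 shared sites. The start codon region had 57.8% (53.4 to 62.1) of the first and 33.3% (27.99 to 39.0) of the second. The CDS had 21.8% (18.3 to 25.6) and 46.8% (41.0 to 52.7). These shares thus also differed within the range, which is a description and no test. The 5′ UTR had 20.04% (16.7 to 23.7) of the control-only and 17.5% (13.4 to 22.3) of the shared sites, and the 3′ UTR 0.193% (0.00488 to 1.07) and 1.68% (0.549 to 3.88). The score mixes the number of reads with the methylated share, so this range does not match the sets for depth. Whether score or depth accounts for the difference in placement was not tested.

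Per 1000 cytosines of the 604 transcripts that carry them, control-only sites numbered 15.02 around the start codon, 6.29 in the 5′ UTR and 0.989 in the CDS. They were rarest around the stop codon (0.825) and in the 3′ UTR (0.166). The middle of the distribution was 30.5 nt downstream of the first base of the start codon, with quartiles at −61 and 150 nt. The shared sites had their median at 347.5 nt, those of OGD/R 1.5 h alone at 56 nt and those of OGD/R 3 h alone at 15 nt. Among control-only sites, 26.6% lay on the first 100 nt of the coding sequence and 23.4% on the 100 nt before it.

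**Figure D2:**
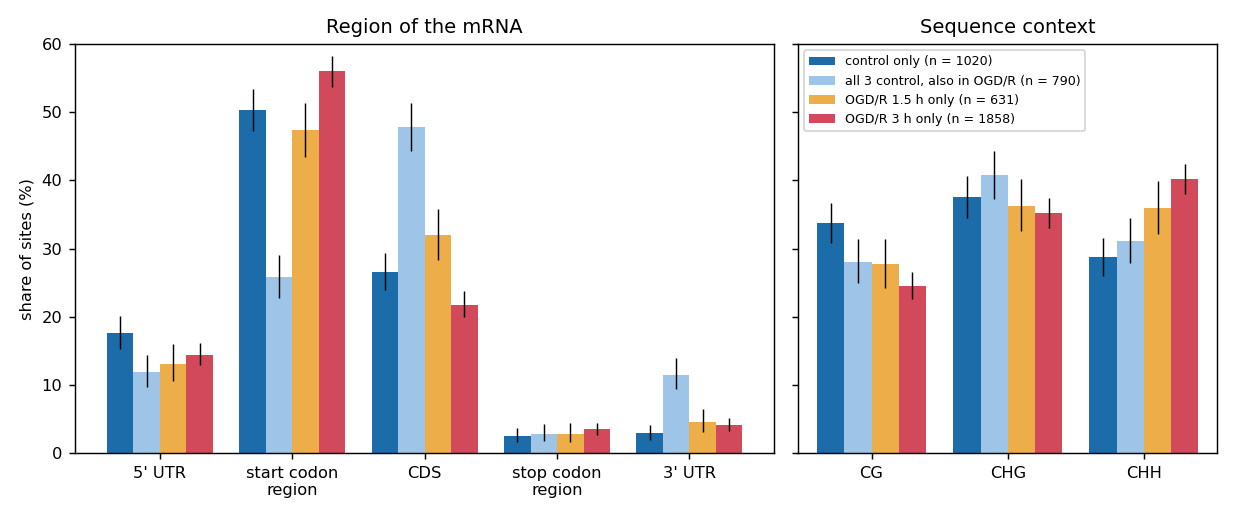
Share of sites (y axis, %) by mRNA region and by sequence context for 4 sets of mRNA sites, with n in the legend. Bars start at 0 and error lines are exact 95% binomial intervals for counting error. The start codon region holds 50.3% of the control-only sites and 25.8% of the control sites also called in OGD/R.

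The few sites near the end of the mRNA had the highest scores. The median of the mean score was 106 over the 26 sites of the stop codon region and 99 over the 30 sites of the 3′ UTR. It was 14.7 in the CDS, 10.7 in the start codon region and 8 in the 5′ UTR. In the single control libraries the medians were 111, 98.5 and 63 in the stop codon region and 7, 9 and 7 in the start codon region, so every library gave the same order for these regions. The highest sites of Anpep, Krt20, Smim24 and Epcam, given above, are among those of the stop codon region.

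**Figure D3:**
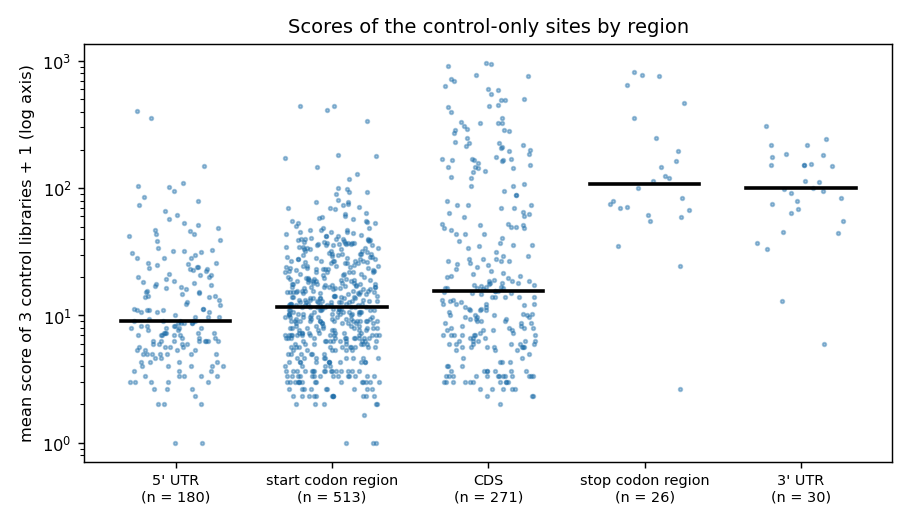
Mean score over the 3 control libraries plus 1 (y axis, log scale) for each of the 1020 control-only sites, by mRNA region (x axis). Each point is 1 site, spread sideways at random, and black lines are medians. The lines for the stop codon region (106 before adding 1) and the 3′ UTR (99) lie above those of the other regions.

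The bases after the cytosine gave the sequence context. In 344 sites (33.7%, 30.8 to 36.7) the next base was G (CG), in 383 (37.5%, 34.6 to 40.6) the second base was G after another base (CHG), and 293 (28.7%, 26.0 to 31.6) had neither (CHH). Among all cytosines of the same transcripts these shares were 11.3%, 25.2% and 63.5%. CG was thus 3.00 times and CHG 1.49 times as frequent at control-only sites, and CHH 0.452 times. This background was not matched for region or coverage. Of its cytosines 273914 lay in the CDS and 181049 in the 3′ UTR, but 34157 in the start codon region, where most control-only sites lay. Of the shared sites 28.1% were CG and 31.1% CHH. Sites of OGD/R 1.5 h alone were CG in 27.7% and CHH in 36.0%, and those of OGD/R 3 h alone in 24.5% and 40.2%.

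Guanine was frequent around the sites. Within 10 nt on either side the bases were 40.7% G, 24.4% C, 21.6% A and 13.3% T, and the shared sites had 40.2% G and 19.97% C. At least 3 of the first 5 downstream bases were G in 348 sites (34.1%, 31.2 to 37.1), as against 9.96% of all cytosines of these transcripts. The shared sites had 32.8%, those of OGD/R 1.5 h alone 27.6% and those of OGD/R 3 h alone 21.3%. A run of GGG directly after the cytosine, as in the context reported for NSUN2, was present at 27 sites (2.65%, 1.75 to 3.83) and at 1.05% of cytosines. This run was present at 3.92% of the shared sites, at 2.69% of those of OGD/R 1.5 h alone and at 2.10% of those of OGD/R 3 h alone. TCCA directly after the cytosine, the letters linked to NSUN6, stood at 3 sites (0.294%) and at 0.706% of cytosines. The shares over all cytosines are again not matched for region or coverage. A match of letters is a description and does not name the enzyme.

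Predicted RNA structure was computed for 101 nt around each site that lies far enough from the ends of its transcript. The lowest free energy had a median of −32.4 kcal/mol over 979 control-only sites and of −27.0 over 765 shared sites. For sites of OGD/R 1.5 h alone it was −30.05 and for those of OGD/R 3 h alone −31.9. The called cytosine was paired in the predicted fold at 74.1% of the control-only sites and at 73.9% of the shared ones. It was paired at 69.6% of the sites of OGD/R 1.5 h alone and at 64.3% of those of OGD/R 3 h alone. Energy falls with the share of G and C, which is high near start codons. Whether structure kept these cytosines from conversion was not tested.

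Of the control-only sites in the coding sequence, codon regions included, 176 of 564 (31.2%) were at the first base of a codon, 162 (28.7%) at the second and 226 (40.1%) at the third. The third base held 37.0% of the shared sites, 36.7% of those of OGD/R 1.5 h alone and 36.9% of those of OGD/R 3 h alone. The share of all cytosines at each codon base is not given here.

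Genes differed in how many control-only sites they carried. A single one was found in 368 of the 603 genes (61.0%), 150 had 2, 41 had 3, 22 had 4 and 22 had at least 5. These last 22 genes held 145 sites. Windows of 29 nt with most control-only sites are shown for both genes with 10 sites and for Spint2, which was added after the values were seen because 5 sites fall in its window. The capitals are the control-only sites and all other cytosines are in lower case.
Dgat1 (chr15:76511820-76511848, minus strand): CcgcgggctCcaagcgctgagagccggCg
Hnrnpab (chr11:51606700-51606728, minus strand): cggcCaagccCgcgcgtcgccttCtgcgg
Spint2 (chr7:29281685-29281713, minus strand): CggcCgtgggctttcCcgcacctgctCgC

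Dgat1, which makes the last step of triglyceride synthesis, had 10 control-only sites, 8 of them in the start codon region. Its highest scored 434, 406 and 384. The gene as a whole had 21, 17 and 19 sites in the control libraries, 13, 10 and 10 after OGD/R 1.5 h and 18, 16 and 20 after OGD/R 3 h. Its mRNA thus had called sites in each group, at partly different cytosines. Without the control-only sites, Dgat1 had 14 distinct sites in control, 16 in OGD/R 1.5 h and 21 in OGD/R 3 h. How many reads lay over the control-only cytosines in OGD/R is unknown.

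Hnrnpab, an RNA-binding protein of the hnRNP family, also had 10, with scores of 52, 42 and 43 at the highest. Its sites numbered 22, 18 and 17 in control, 14, 12 and 12 after OGD/R 1.5 h and 12, 11 and 12 after OGD/R 3 h. Control counts lay above all OGD/R counts, as the choice of control-only sites favours. Without the control-only sites, Hnrnpab had 15 distinct sites in control, 16 in OGD/R 1.5 h and 15 in OGD/R 3 h. Pcbp1, which binds runs of C in RNA, had 7 control-only sites, and its highest scored 50, 20 and 87.

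Spint2, an inhibitor of serine proteases at the cell surface, had 8, all in the 5′ UTR or the start codon region. Its highest site scored 48, 18 and 20, and 5 sites in the 29 nt shown scored between 0 and 57. Total sites were 13, 13 and 11 in control, 5, 4 and 5 after OGD/R 1.5 h and 6, 7 and 9 after OGD/R 3 h. Pfn1, which binds actin monomers, had 8 as well, and its totals were 16, 22 and 18 in control, 12, 11 and 15 after OGD/R 1.5 h and 25, 22 and 30 after OGD/R 3 h. The totals of Pfn1 thus lay below control after OGD/R 1.5 h and at or above the highest control total after OGD/R 3 h. Control totals include the control-only sites by the rule. Apart from these, Pfn1 had 20 distinct sites in control, 24 in OGD/R 1.5 h and 43 in OGD/R 3 h. Spint2 had 5, 10 and 11.

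Apoa1 had 7 control-only sites, of which 4 were in the CDS, 2 around the start codon and 1 around the stop codon. Besides the highest, the site at 702 nt scored 595, 1000 and 735 and the site at 502 nt 544, 829 and 716. The sites at 263 and 258 nt, 5 nt apart, scored 628, 552 and 735, and 649, 710 and 423. Total sites in Apoa1 were 22, 17 and 17 in control, 4, 5 and 5 after OGD/R 1.5 h and 17, 18 and 21 after OGD/R 3 h. The OGD/R 3 h counts thus overlap those of control, and those of OGD/R 1.5 h lie below both. Control counts include the control-only sites by the rule, so this order is partly built in. Apart from these, Apoa1 had 17 distinct sites in control, 6 in OGD/R 1.5 h and 21 in OGD/R 3 h.

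Apoa4 had 6, and its site at 894 nt scored 807, 977 and 503. Its totals were 19, 24 and 19 in control, 12, 11 and 13 after OGD/R 1.5 h and 13, 15 and 17 after OGD/R 3 h. Muc13 had 5, of which the sites at 1388 and 1322 nt scored 665, 795 and 704, and 656, 815 and 336. Anpep had 5 and totals of 10, 13 and 16 in control, 11, 10 and 15 after OGD/R 1.5 h and 25, 14 and 22 after OGD/R 3 h. Muc13 had totals of 8, 9 and 15 in control, 8, 4 and 5 after OGD/R 1.5 h and 11, 10 and 10 after OGD/R 3 h. In both Muc13 and Anpep the control totals, which include the control-only sites by the rule, overlap those of each OGD/R group. Apart from these sites, Anpep had 14 distinct sites in control, 24 in OGD/R 1.5 h and 31 in OGD/R 3 h. Muc13 had 13, 11 and 15, and Apoa4 26, 16 and 18.

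**Figure D4:**
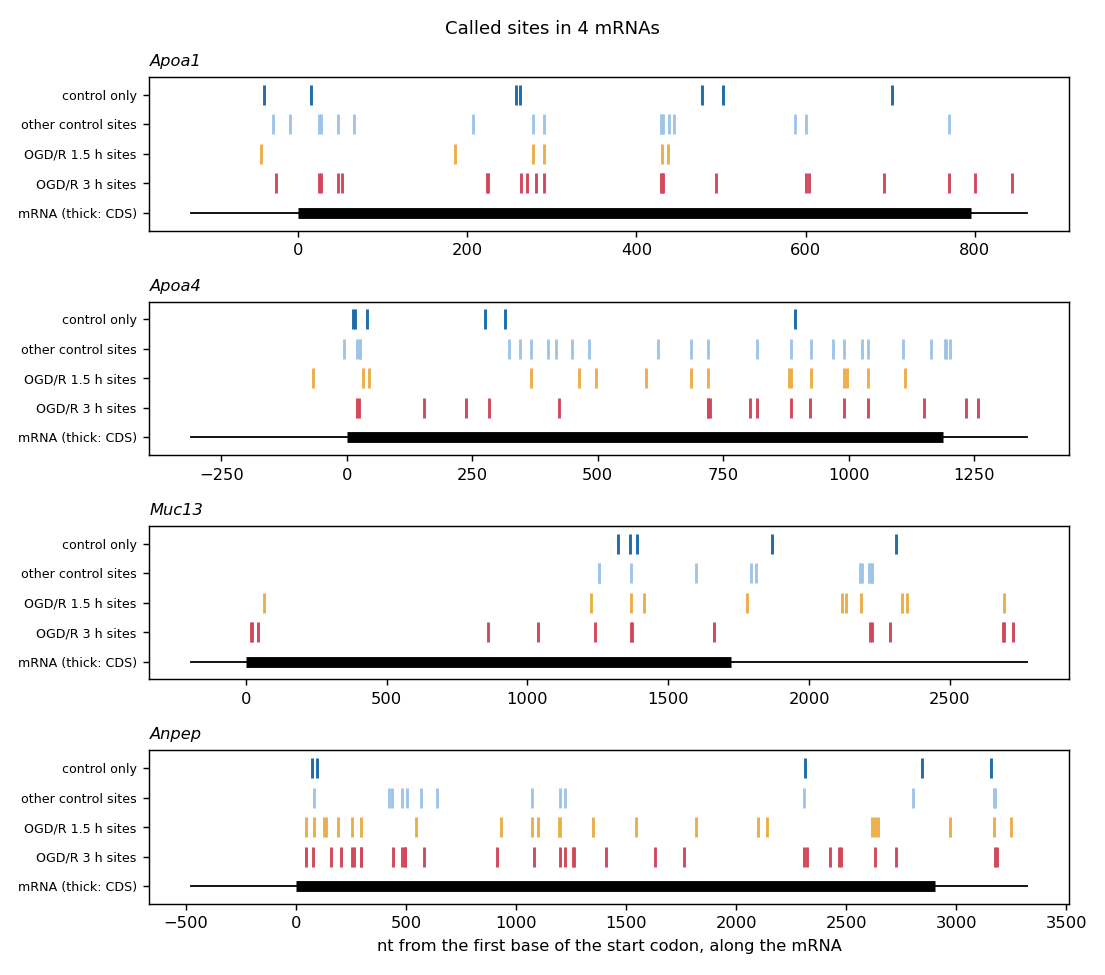
Called sites along the mRNAs of Apoa1, Apoa4, Muc13 and Anpep (x axis, nt from the first base of the start codon, to scale in each panel), with rows for control-only sites, other control sites, OGD/R 1.5 h sites and OGD/R 3 h sites and the mRNA at the bottom, thick over the CDS. A site called in several groups has a tick in each of their rows. All 4 mRNAs carry sites of both OGD/R groups between or beside their 7, 6, 5 and 5 control-only sites.

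Slc5a1, the sodium and glucose cotransporter, had 7 control-only sites, the highest with 193, 395 and 383. Slc6a8, the creatine transporter, had 7 with 39, 2 and 101 at the highest, and its totals were 10, 12 and 13 in control, 6, 7 and 5 after OGD/R 1.5 h and 28, 25 and 31 after OGD/R 3 h. Sgpl1, which degrades sphingosine phosphate, had 7, all in the start codon region, with a highest site of 44, 89 and 85. Its totals were 11, 11 and 10 in control and between 1 and 4 in the OGD/R libraries.

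Ndfip2, an adaptor of Nedd4 family ubiquitin ligases, had 7, the highest with 144, 35 and 28. Irf2bp2, a transcriptional co-repressor, had 7, all in the 5′ UTR, with 2, 11 and 48 at the site with the highest mean. In Sgpl1 the totals of control lie above those of OGD/R, and in Slc6a8 control lies above OGD/R 1.5 h and below OGD/R 3 h. The rule places the control-only sites in every control library and in no OGD/R library, so nothing is read from these gaps. Apart from them, Sgpl1 had 6 distinct sites in control, 3 in OGD/R 1.5 h and 5 in OGD/R 3 h. Slc6a8 had 10, 10 and 38.

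Control-only sites stood close to each other and to sites of other kinds. Of the 1020, 301 (29.5%) had another control-only site within 10 nt on the strand. They formed 141 runs, 124 of 2 sites and 17 of 3 or more. The longest had 4 sites over 21 nt in Lsr, a lipoprotein receptor and tight junction protein, and 23 pairs were adjacent bases. Another site called in a control library lay within 10 nt of 645 control-only sites (63.2%, 60.2 to 66.2).

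Sites of the OGD/R libraries were as near for many of them. In 533 control-only sites (52.3%, 49.1 to 55.4) an OGD/R site lay within 10 nt, in 815 (79.9%, 77.3 to 82.3) within 150 nt, the length of a read, and in 902 (88.4%, 86.3 to 90.3) in the same gene. An OGD/R 1.5 h site lay within 10 nt of 38.3% and within 150 nt of 69.3%, and an OGD/R 3 h site of 32.6% and 62.6%. At 115 sites the nearest OGD/R site was the adjacent base. The median score was 12.7 in the 533 sites with an OGD/R site within 10 nt and 10.7 in the 487 without. Shared sites had another OGD/R site within 10 nt in 72.7%, within 150 nt in 92.5% and in the same gene in 97.5%. An OGD/R call nearby does not show that the control-only cytosine itself had enough reads in that library. Depth there was not known.

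**Figure D5:**
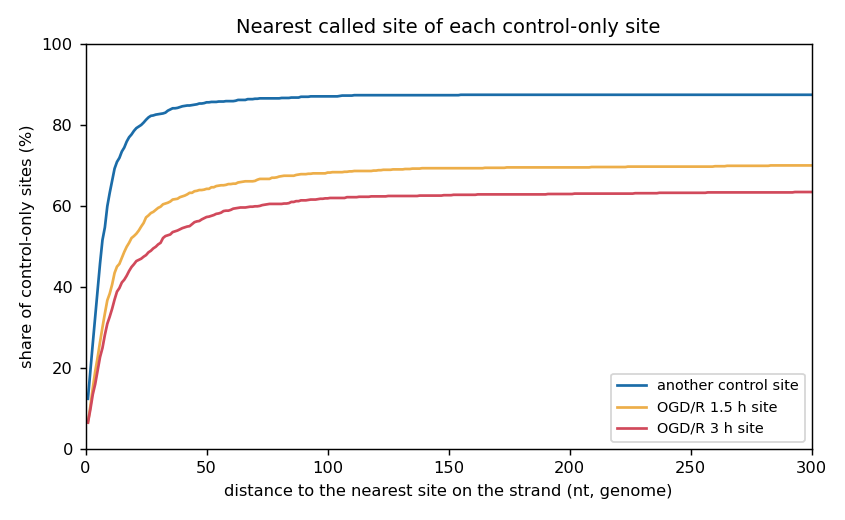
Share of the 1020 control-only sites (y axis, %) that have another called site within the distance on the x axis (nt on the genome, same strand). The lines stand for other control sites, OGD/R 1.5 h sites and OGD/R 3 h sites, at 63.2%, 38.3% and 32.6% within 10 nt.

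By gene, 507 of the 603 genes (84.1%) had an OGD/R site elsewhere, 457 (75.8%) in OGD/R 1.5 h and 395 (65.5%) in OGD/R 3 h. Sites of both OGD/R groups were found in 345 genes, of OGD/R 1.5 h alone in 112 and of OGD/R 3 h alone in 50. The remaining 96 genes, with 118 control-only sites, had no OGD/R site at all, and the median score of these sites was 8.67, as against 12.2 for the other 902.

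The genes with the highest scores among these 96 were picked after their values had been seen. Aimp1, given above, had no other called site in any library. Wapl, which releases cohesin from chromatin, scored 93, 381 and 378 at its only control-only site. Atp5pb, a subunit of the mitochondrial ATP synthase, scored 127, 216 and 164, and Nedd9, a docking protein of focal adhesions, 34, 224 and 195. Polr2f, a subunit shared by RNA polymerases, scored 176, 63 and 57. The scores of Wapl, Atp5pb and Nedd9 were lowest in control replicate 1 and that of Polr2f highest there.

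Gene groups are given as counts of control-only sites among the group's sites in all 3 control libraries, to be set beside the 56.4% of all such mRNA sites, and with no test. The intestinal epithelium list had 40 of 72 (55.6%), in 15 of its 28 genes. Over all annotated protein-coding genes, 603 of 21013 had a control-only site. The list's share of sites was close to the 56.4%, while the median score of its 40 sites was 173, against 11.7 for all control-only sites. Without these genes 980 control-only sites were left, with a median score of 11 and 51.0% in the start codon region. Without them 34.5% of the sites were CG and 25.8% lay in the CDS, and 79.4% had an OGD/R site within 150 nt. Fabp1, a fatty acid binding protein of the list, was picked after its values had been seen. It had 4 sites in each control library, 2 of them control-only by the rule. It had 0 in each OGD/R 1.5 h library and 1 or 2 in the OGD/R 3 h libraries. Other genes of the list had more sites after OGD/R 3 h than in control, such as Fcgbp with 12, 13 and 10 in control, 12, 16 and 13 after OGD/R 1.5 h and 72, 69 and 66 after OGD/R 3 h. The smooth muscle and fibroblast list had 3 of 6, in Acta2 and Mylk, and the erythroid list 1 of 1, in Tfrc. Neurons, glia and neutrophils had none.

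Membrane transport and sorting came next. Solute carriers had 43 of 63 (68.3%), led by Slc5a1 and Slc6a8. Slc35g1 had 4, and Slc9a3, a sodium and proton exchanger, had 3, the highest with 193, 345 and 99. Vesicle trafficking genes had 27 of 42 (64.3%). The sorting nexin Snx3 had 3 with a highest site of 2, 26 and 8, the golgin Golga4 2 with 211, 57 and 42, the small GTPase Rab18 2 with 74, 113 and 23, and the exocyst subunit Exoc6b 2 with 1, 51 and 65.

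Genes of the cytoskeleton and of junctions follow. Actin, myosin and tropomyosin genes had 35 of 85 (41.2%). Besides Pfn1 and Myh9 these were led by the formin Diaph1 with 3 (26, 69 and 10 at the highest) and Myo1d with 3 (2, 8 and 4). Microtubule genes had 12 of 24 (50%), with 4 in the dynein light chain Dynll2, whose highest scored 207, 746 and 119. Cell adhesion and junction genes had 16 of 28 (57.1%). In Cldn7, a claudin of tight junctions, 5 sites lay in the 5′ UTR, and the highest scored 16, 36 and 13. Ctnnd1, the catenin that binds cadherins near the membrane, had 2, with 232, 477 and 500.

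RNA-binding and splicing genes had 38 of 64 (59.4%). After Hnrnpab and Pcbp1 came Rbm6, with 2 (63, 44 and 22), and the helicase Dhx15, with 2 (11, 9 and 80). Cytosolic ribosomal proteins had 5 of 10, Rps28 and Rpl8 among their genes, and Rpl23 scored 263, 263 and 87. Translation factors had 10 of 25 (40%). Pabpc1, which binds poly(A) tails, had 3 with 6, 11 and 6 at the highest, and the elongation factor Eef2 had 2 with 359, 398 and 215. Chromatin and transcription regulators had 15 of 36 (41.7%), of which 6 lay in the CDS of the co-repressor Ncor1, whose highest scored 56, 110 and 25.

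Protein folding and turnover stood nearby. Chaperones had 16 of 31 (51.6%), with 5 in calnexin (Canx; 3, 9 and 36 at the highest) and 4 in the disulfide isomerase P4hb (69, 34 and 86). Genes of ubiquitin and the proteasome had 22 of 47 (46.8%), with 4 in the ligase Trim2 (3, 31 and 3) and 2 in each of Ube2m, Ube2d3 and Ube2k, which carry ubiquitin or its relative Nedd8. The unfolded protein response list, which shares Canx, had 7 of 16 (43.8%). Xbp1, its transcription factor, scored 39, 22 and 16, and Edem1, which helps clear misfolded glycoproteins, 14, 14 and 4.

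Genes tied to oxygen and energy were counted in the same way. Nuclear genes of the respiratory chain had 12 of 19 (63.2%), in 7 genes. Atp5b of the ATP synthase had 2 (100, 96 and 38 at the highest), Cox4i1 of cytochrome oxidase 2 (36, 138 and 46) and Atp5a1 2 (3, 40 and 23). Glycolytic enzymes had 0 of 1. Of the HIF-1 targets only the growth factor Vegfa had a control-only site, with 1, 6 and 5, and this was 1 of 3. Of the apoptosis genes Bak1, which opens the outer mitochondrial membrane, had 1 of 2 with 0, 2 and 2. With so few sites these lists say little about the pathways.

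Of the genes that write, read or remove m5C, the reader Ybx1 alone had control-only sites. There were 2, both in the start codon region, with 12, 2 and 3 and with 3, 2 and 3, and these were the list's only sites in all 3 control libraries. The 14-3-3 proteins, adaptors that bind phosphorylated partners, had 4 of 11 (36.4%), 3 of them in Ywhah and 1 in Ywhab. The 10 candidate transcripts of the study had 6 of 14 (42.9%). They were picked on these libraries, so their calls here are no independent evidence. The study also measured them by immunoprecipitation with an m5C antibody and qRT-PCR and reports full agreement with its sequencing. It lists Ywhah, Acta2, Dpp4, Heph and Myo7a as hypomethylated after OGD/R. Ywhah scored 7, 38 and 44 at the highest of its 3, Acta2 12, 61 and 130 at the higher of its 2, and Dpp4 94, 178 and 27 at its 1. Heph and Myo7a, also listed as hypomethylated, had no control-only site, and neither had Hbb-bs, Anxa1, Prr13, Cyba and Arhgap12. The study names Prr13 in its primers and Prr15 in its text. Prr15, looked up after the data had been seen and not in these counts, had a control-only site that scored 1, 5 and 32.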

How the data were processed

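Calls from 9 bisulfite libraries in 3 groups of 3 were analysed. The 9 mock libraries of unconverted RNA were not used here. RNA was depleted of rRNA and libraries kept the strand. The authors trimmed reads with Cutadapt 1.9.3, used meRanGh to align bisulfite reads to mm10 and meRanCall to find sites library by library. The study counts a site from level 0.1 and coverage 10 upwards. How mock reads entered the calls is not given in the sources used here. The deposited files give for each site a score, which the authors did not scale for depth.

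Sites were placed on RefSeq protein-coding transcripts of GRCm38.p6 with Python 3.11.15, numpy 2.4.6 and pysam 0.24.0, using the transcript with the longest CDS. Sequence was indexed with samtools 1.23.1 and folded with ViennaRNA 2.7.2 over 101 nt. Positions count from 1. Exact binomial intervals used scipy 1.17.1 at 95%, and figures used matplotlib 3.10.9. The placement code was tested on simulated data. Replicates were compared by a chi-square on coverage in the part of the study's supplement held here. No coverage was held for OGD/R 1.5 h, which was treated in the same way.

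The sites and the gene lists were chosen with earlier results of these data known. Named genes were the 12 with the highest score, the 12 with most control-only sites, up to 4 of each list and the study's 10 candidates. No test was run, since the libraries of a group counted as 1 sample. The alternatives were other numbers of libraries, a minimum score of 10, isolated sites, other distances, the GENCODE annotation and each library left out. A range of scores and the removal of intestinal genes were added once the data had been seen. Some genes that this rule names are not reported here.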

Additional observations from a re-analysis of the deposited data

How the results depend on the processing

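The number of control-only sites, 1020 in 603 genes, depended most on the call rule. It was 1789 in 933 genes with 2 of 3 control libraries required, 487 in 358 with no OGD/R site within 10 nt, 283 in 217 with a score of at least 10 in each control library and 375 in 317 with no other control site within 10 nt. In this order of settings, where a value moved, the start codon region held 38.3% with 2 libraries and 33.6% with the minimum score, and 44.96% with 1 OGD/R library allowed. The CDS held 39.6%, 37.1% and 32.8% in the same settings. The 5′ UTR held 12.6%, 10.95% and, for isolated sites, 12.8%, the stop codon region 4.75%, 8.48% and 5.60%, and the 3′ UTR 4.75%, 9.89% and 5.07%. CG fell in 30.5% with 2 libraries and 30.7% with the minimum score. With codon regions of 50 nt the start codon region held 28.6%, the 5′ UTR 27.8%, the CDS 38.9% and the stop codon region 1.37%. Within the middle range of scores CG was 37.6%, the start codon region 57.8%, the CDS 21.8% and the stop codon region and the 3′ UTR 0.193% each. The median score was 67.7 with the minimum score and 14.3 for isolated sites. At least 3 G among 5 bases gave 34.1%, where GGG directly after the cytosine gave 2.65%. An OGD/R site in the gene was found for 75.8% with none within 10 nt, 90.5% with the minimum score and 84.0% of isolated sites, and one within 150 nt for 74.3% with 2 libraries, 57.9% with none within 10 nt and 72.0% of isolated sites. Within 50 nt it was 76.7%.

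Leaving out 1 of the 9 libraries in turn gave 1039 to 1310 sites, 14.7% to 18.0% in the 5′ UTR, 43.3% to 49.5% in the start codon region, 27.1% to 33.4% in the CDS, 2.48% to 3.94% in the stop codon region, a median score of 10.0 to 11.7 and 76.5% to 79.7% with an OGD/R site within 150 nt. Each omission loosens the rule, since a library fewer has to hold or lack the call, so the number of sites could only rise. The full rule gave 1020 sites and 50.3% in the start codon region, both outside these ranges. Of the comparisons of 14 summaries with an alternative, 178 stayed within the limits set and 56 moved. Regions were not recomputed for GENCODE. No paired analysis was possible because no result comes from a test. Depth per library is unknown, so an absent call is no measure of absent methylation.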
